A study of Homo sapiens with 6 samples.

Results

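Rab GTPases are small membrane-bound switches that give vesicles and organelles their identity. A guanine nucleotide exchange factor (GEF) loads the Rab with GTP at its membrane, the loaded Rab recruits effectors such as tethers and motor adaptors, and a GTPase activating protein (GAP) turns it off again. The inactive Rab then returns to the cytosol, and different Rabs mark the Golgi, secretory vesicles, early endosomes, recycling endosomes and late endosomes of every cell. Members were the genes whose symbol is RAB, a number and at most 1 letter from A to D, with at least 10 read counts in every culture. Of 26485 symbols in the count table, 62 had such a name, and 51 of them passed the count minimum. The symbols closest to that minimum were *RAB17*, with a lowest count of 11, and *RAB41*, with a lowest count of 9.

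RNA-seq was performed on HEK293, an established line of human embryonic kidney cells, in 3 cultures in which the lncRNA *HSALNG0134318* was knocked down and in 3 control cultures. The labels give the genotype of the controls as WT and their names as NC, and they name no further allele or agent. For the knockdown, cells were transiently transfected with a Smart Silencer, a mixture of siRNAs and antisense oligonucleotides against 1 transcript, and what the controls received is not given in the sources used here. All cultures are of the same cell line, the study describes its knockdown experiments as biologically independent, and *HSALNG0134318* has no entry in the table with which to check the labels.

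Total counts lay between 13900965 and 16869948 per culture. The 7 HEK293 marker genes, among them *NEFL*, *VIM* and *KRT8*, had at least 95 counts in every culture, and the 7 defining genes of leukocytes, endothelium, hepatocytes, erythroid cells, macrophages and adipocytes had at most 7, with *HBB* and *ADIPOQ* at 0 throughout. The cultures were not equally similar to each other in their Rab genes. Over the 51 members, the root mean square difference in log2 normalized counts was 0.214 to 0.253 between knockdown cultures and 0.297 to 0.389 between control cultures. Control replicate 3 lay 0.275 to 0.330 from the knockdown cultures, whereas control replicates 1 and 2 lay 0.408 to 0.502 from them. Control replicates 2 and 3 were the furthest apart of the controls, at 0.389, further than control replicate 3 lay from any knockdown culture. Knockdown replicates 1, 2 and 3 are named KD-1, KD-4 and KD-5 in the labels. Those of the controls are named NC-10, NC-11 and NC-1, and the study does not say what these numbers mean.

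The comparison asked which Rab genes differed after knockdown of *HSALNG0134318*. More Rab genes were lower than higher. By edgeR's quasi-likelihood test with Benjamini-Hochberg adjustment over 14877 genes, 7 of the 51 members fell (13.7%, against 4.64% of all genes tested) and 1 rose (1.96%, against 5.40%). The genes that fell were *RAB23*, *RAB5B*, *RAB12*, *RAB40B*, *RAB21*, *RAB6A* and *RAB2B*, by 21.8% to 31.5%, and *RAB5A* rose by 34.6%. A log2 fold change below 0 was found for 40 of the 51 members (78.4%), and for 52.7% of all genes tested. The median log2 fold change was -0.15 over the members and -0.02 over all genes tested. The 3 knockdown values lay below all 3 control values in 19 members, where 15.8% of all genes tested did so, and above them in 4 members, where 16.4% did so. In cultured cells measured in bulk, fewer cells of a kind and less RNA per cell cannot be told apart.

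**Figure D1:**
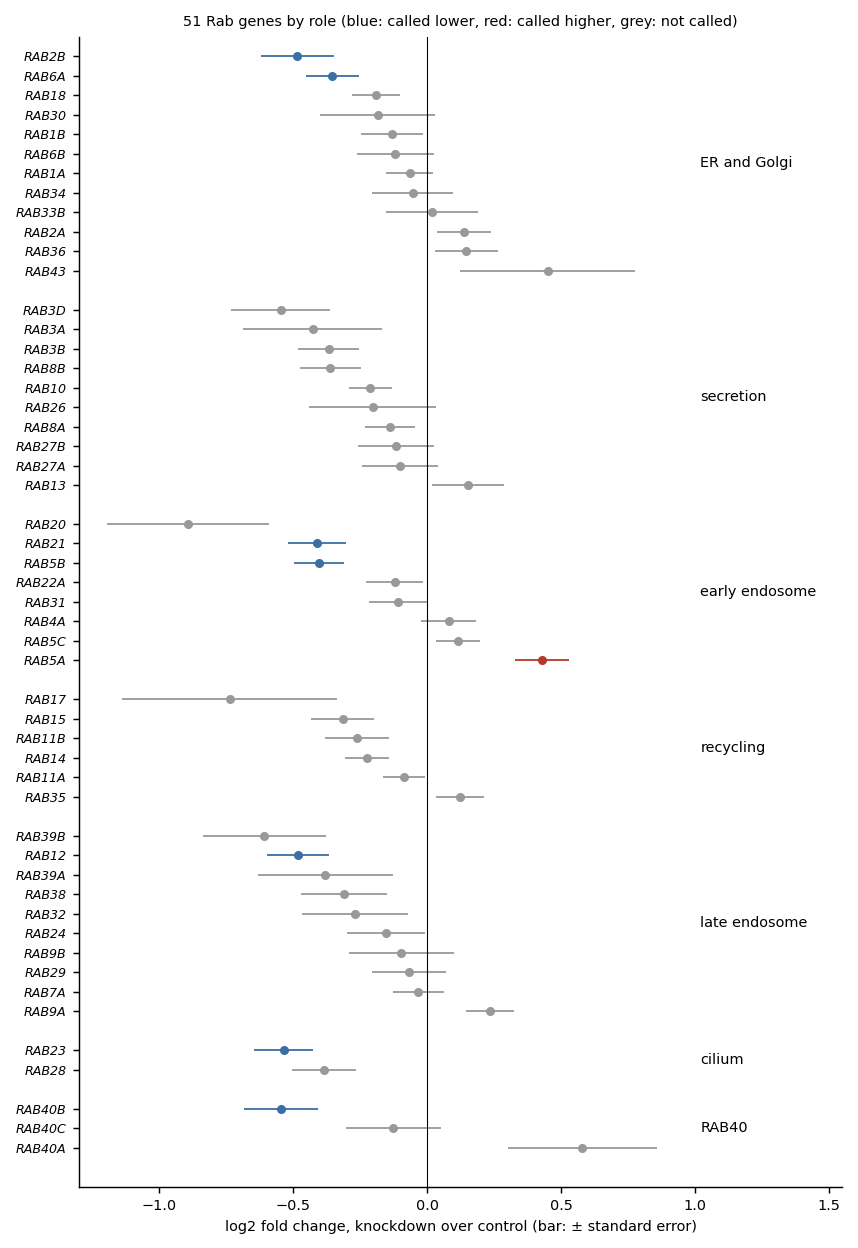
Log2 fold change of knockdown over control (x axis, with standard errors) for the 51 Rab genes (y axis), grouped by role. Blue and red points are genes called lower and higher by edgeR at an adjusted p under 0.05, and 40 of the 51 points lie left of 0.

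Those counts depended on single cultures. Without knockdown replicate 1 or 3, no member was called, while 593 and 530 genes were called among all those tested. Without knockdown replicate 2, 1 member was called lower (*RAB23*) and none higher, and without control replicate 1, none was called lower and 1 higher (*RAB5A*). Without control replicate 2, the control that differed most from the other controls, 12 members were called lower and 1 higher, among them *RAB18*, a Rab of the endoplasmic reticulum and lipid droplets. Removing the trend with GC content and length from each library (the GC and length correction) gave 13 lower and 2 higher members. The share of all genes called moved in the same way, from 3.51% without knockdown replicate 3 to 16.7% without control replicate 2 and 19.6% after the correction. The number of members with a log2 fold change below 0 was between 34 and 41 over the 15 alternative settings.

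The early endosome was the compartment in which called genes went in both directions. Rab5 proteins drive fusion and maturation of early endosomes, and the 3 human paralogues are encoded on different chromosomes. *RAB5A* (chromosome 3, 19947097 to 19985175 on hg38, plus strand, GENCODE release 44) had 1100, 1138 and 1226 normalized counts in knockdown replicates 1, 2 and 3 and 924, 785 and 864 in control replicates 1, 2 and 3. Every knockdown culture was higher than every control culture, and the log2 fold change was 0.43 (standard error 0.10, edgeR adjusted p of 0.021). *RAB5B* (chromosome 12, 55973913 to 55996683, plus strand) had 3098, 3012 and 2850 normalized counts in the knockdown cultures and 4054, 4246 and 3549 in the controls. It was lower in every knockdown culture, by -0.40 on the log2 scale (standard error 0.09, edgeR adjusted p of 0.020).

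*RAB5C* stood at 3957 ± 119 normalized counts after knockdown and 3656 ± 128 in controls (SD, n = 3), and its log2 fold change of 0.11 (standard error 0.08) had an edgeR adjusted p of 0.40. The summed counts of the 3 paralogues, 8098 ± 177 after knockdown and 8464 ± 251 in controls, overlapped between the groups. The composition of the sum did not. *RAB5A* made up 13.3%, 14.1% and 15.4% of the family's counts in the knockdown cultures and 10.9%, 9.04% and 10.5% in the controls. The share of *RAB5B* was 36.9% ± 0.850 after knockdown and 46.6% ± 2.92 in controls, and that of *RAB5C* was 48.9% ± 0.441 and 43.2% ± 2.54. These shares are a description of the counts and were not tested. Per kilobase of transcript, *RAB5C* was the most abundant Rab of the controls, at 148 CPM per kilobase (CPM scales counts to the library size), above *RAB5B* at 49.7 and *RAB5A* at 22.6. In GENCODE, 43.9% of the 50-base words of the *RAB5C* transcript also occur in a transcript of ENSG00000267261, so its level depends on how the authors' counting treated shared bases.

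*RAB21*, an early endosomal Rab known for integrin traffic, had 511, 624 and 575 normalized counts after knockdown and 775, 734 and 764 in controls. The groups did not overlap, and the log2 fold change was -0.41 (standard error 0.11, edgeR adjusted p of 0.036). Its coordinates are chromosome 12, 71754863 to 71800286, plus strand. *RAB20*, a Rab of endosomes and phagosomes, had the most negative estimate of all members, with a log2 fold change of -0.89, but few counts. Its 29.9, 28.2 and 17.2 normalized counts after knockdown lay below the 45.9, 58.0 and 36.0 of the controls, with a standard error of 0.30 and an edgeR adjusted p of 0.085, so it was not called except after the GC and length correction and without control replicate 3.

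The sequences of the silencers allow a further description of the members. If a 19-base silencer acts as an siRNA, bases 2 to 8 of its guide strand, the seed, can pair with a matching 7mer in the 3′ UTR of other transcripts. Which of the 6 silencers are siRNAs is not given in the sources used here, and 1 of them had no exact match on chromosome 22 and was not used. The target sites of both 19-base silencers that match chromosome 22 of hg38 (22307418 to 22307436 and 22307525 to 22307543) were read from the assembly, and the 7mers TATACGT and CTATCAC, which would pair with the seeds, were searched on the sense strand of the 3′ UTRs of GENCODE canonical transcripts. At least 1 of both 7mers was in 3 of the 51 Rab 3′ UTRs (5.88%), in 7.92% of the 13321 tested genes with such a UTR and in 168 of the 672 genes called lower. Among the 7 Rab genes that fell, only *RAB21* had one, in a 3′ UTR of 14613 bases. The 3 sites are shown with 11 bases on each side and the 7mer in capitals, from chromosome 12 (71790323 to 71790351, plus strand), chromosome 11 (82974688 to 82974716, minus strand) and chromosome X (155259369 to 155259397, minus strand).
*RAB21*: tcatctcttcaCTATCACgtattttaaga
*RAB30*: ccccacatttcCTATCACtccattgaaac
*RAB39B*: cctgtctgccaTATACGTacactgagttc
Of these genes, *RAB21* was called lower (log2 fold change of -0.41). *RAB30*, a Golgi Rab, was not called (-0.18, edgeR adjusted p of 0.63), and neither was *RAB39B* (-0.61, edgeR adjusted p of 0.12). The other 6 genes that fell, and *RAB5A*, held neither 7mer. A 7mer match is a description of these letters and not a measured site of action.

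At the Golgi, *RAB6A* and *RAB2B* fell while their paralogues did not pass the test. Rab6 proteins organize transport within the Golgi and from it back to the endoplasmic reticulum. *RAB6A* (chromosome 11, 73675638 to 73761137, minus strand) had 1490, 1738 and 1767 normalized counts after knockdown and 2200, 1951 and 2234 in controls. All knockdown values lay below the lowest control, and the log2 fold change was -0.35 (standard error 0.10, edgeR adjusted p of 0.043). Of the 50-base words in its transcript, 21.2% occur in other genes and 14.5% in *RAB6C*, which had 7 to 23 counts per culture. *RAB6B* had 239 ± 15.6 normalized counts after knockdown and 259 ± 36.5 in controls (SD, n = 3). Its groups overlapped, with a log2 fold change of -0.12 and an edgeR adjusted p of 0.64. The share of *RAB6A* in the counts of both genes overlapped too, at 87.4% ± 1.20 after knockdown and 89.1% ± 2.05 in controls. Their sum, 1904 ± 155 and 2387 ± 124, did not overlap.

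*RAB2B* (chromosome 14, 21459020 to 21476960, minus strand), whose family acts in traffic between the endoplasmic reticulum and the Golgi, had 297, 344 and 333 normalized counts in the knockdown cultures. The controls had 530, 428 and 405, all above the knockdown values. The log2 fold change was -0.48 (standard error 0.14, edgeR adjusted p of 0.044). Its paralogue *RAB2A* had 1073 ± 56.9 normalized counts after knockdown and 976 ± 87.2 in controls, a log2 fold change of 0.14 with an edgeR adjusted p of 0.42. *RAB2B* thus made up 23.2% ± 0.547 of the counts of both genes after knockdown and 31.8% ± 5.03 in controls, while their sum overlapped between the groups. The highest control share, 37.6%, came from control replicate 1. *RAB1B*, which acts in transport from the endoplasmic reticulum to the Golgi and was second in level per kilobase, had 2533 ± 198 and 2773 ± 427 normalized counts in the knockdown and control groups, with an edgeR adjusted p of 0.51.

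Among Rabs of late endosomes, lysosomes and related organelles, *RAB12* was called and the other 9 members were not. Over all genes tested, 1494 of 14877 were called, a similar share, so this count did not set the group apart. Rab12 is known for transport of recycling cargo to lysosomes. *RAB12* (chromosome 18, 8609437 to 8639383, plus strand) had 503, 641 and 616 normalized counts after knockdown and 767, 843 and 846 in controls. The groups did not overlap, and the log2 fold change was -0.48 (standard error 0.12, edgeR adjusted p of 0.025). *RAB7A*, the main Rab of late endosomes, had 2361 ± 46.3 normalized counts after knockdown and 2416 ± 250 in controls, a log2 fold change of -0.03 (standard error 0.09, edgeR adjusted p of 0.86). *RAB39B*, known from X-linked intellectual disability, had a log2 fold change of -0.61 at 34.4 to 48.3 normalized counts after knockdown and 58.6 to 64.3 in controls, and its edgeR adjusted p was 0.12. *RAB9A*, which acts in transport from late endosomes to the Golgi, was among the few members on the higher side. It had 1516, 1474 and 1391 normalized counts after knockdown and 1162, 1249 and 1316 in controls. The groups did not overlap, but it was not called (log2 fold change of 0.23, standard error 0.09, edgeR adjusted p of 0.12) except after the GC and length correction, with or without the replicate number as a block.

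*RAB23*, an inhibitor of Hedgehog signalling that is also known from cilia, had the smallest p of all members. Its coordinates are chromosome 6, 57186992 to 57222307, minus strand. Its 632, 775 and 728 normalized counts after knockdown lay below the 1101, 948 and 1047 of the controls. The log2 fold change was -0.54 (standard error 0.11, edgeR adjusted p of 0.012), a fall of 31.0%. *RAB28*, a Rab of cilia, was also lower in each knockdown culture, at 249, 279 and 279 normalized counts against 352, 349 and 351 in controls, with an edgeR adjusted p of 0.065. It was called after the GC and length correction and without control replicate 2.

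The RAB40 proteins carry a SOCS box that binds Cullin 5 and so link Rabs to ubiquitin ligases. *RAB40B* (chromosome 17, 82654973 to 82698698, minus strand) had 272, 267 and 309 normalized counts after knockdown and 392, 479 and 366 in controls. No knockdown value reached the lowest control, and the log2 fold change was -0.55 (standard error 0.14, edgeR adjusted p of 0.029). *RAB40A* had 31.8, 37.6 and 48.3 normalized counts after knockdown and 29.6, 22.3 and 26.8 in controls, a log2 fold change of 0.58 (standard error 0.28, edgeR adjusted p of 0.21), and it shares 25.5% of its 50-base words with *RAB40AL*. *RAB40C* had 325, 304 and 325 normalized counts after knockdown and 299, 460 and 280 in controls. Control replicate 2 alone lay above the knockdown cultures, and without it the log2 fold change of -0.13 became 0.14.

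**Figure D2:**
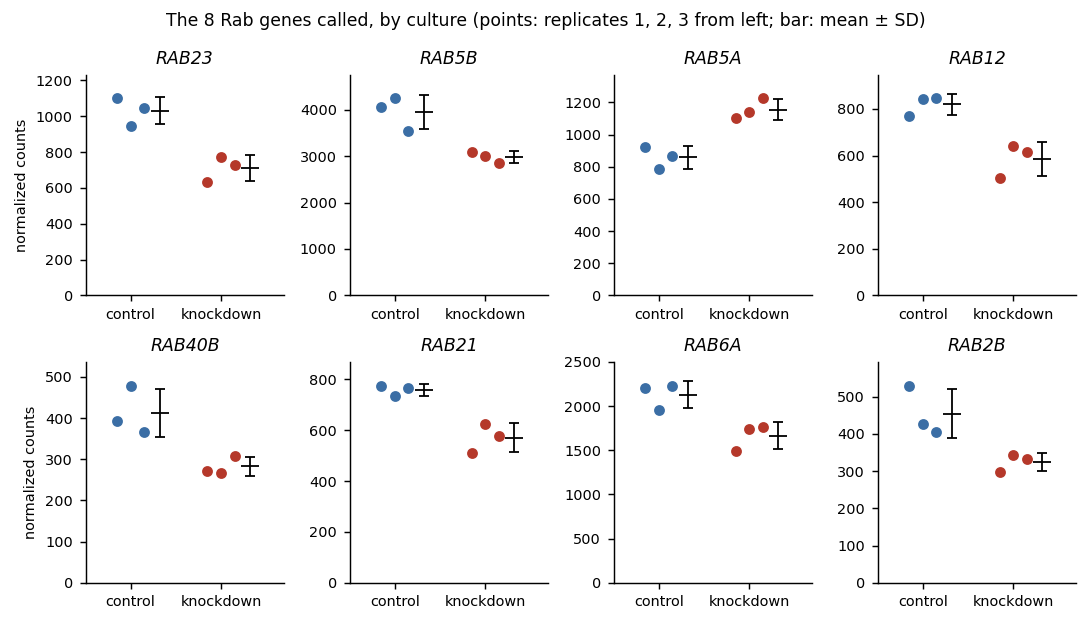
Normalized counts (y axis, from 0) of the 8 called Rab genes in control cultures (blue) and knockdown cultures (red), with mean and SD beside each group. The groups do not overlap in any panel, and *RAB5A* is the panel in which knockdown is the higher group.

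In the reported edgeR fit, none of the 10 Rabs of secretory vesicles and plasma membrane delivery was called. Neither was any of the 6 Rabs of recycling endosomes. An unadjusted edgeR p under 0.05 was found for 4 and 2 of them, and for 26.9% of all genes tested. With 1494 of 14877 genes called in all, sets of 10 and 6 are too small for an absence of calls to set them apart. Under alternative edgeR fits some of these Rabs were called lower. After the GC and length correction these were *RAB3B*, *RAB3D*, *RAB11B* and *RAB15*, of which all but *RAB11B* were also called with the replicate block added. Without control replicate 2 they were *RAB3B*, *RAB3D* and *RAB8B*, and without control replicate 3 they were *RAB3A* and *RAB3B*. Of all genes tested, these 4 fits called 19.6%, 16.6%, 16.7% and 13.7%, in the order given. *RAB3D*, a Rab of secretory granules, had a log2 fold change of -0.55 (standard error 0.19) with an edgeR adjusted p of 0.086. *RAB10*, which acts in delivery of vesicles to the plasma membrane, had 2271, 2190 and 2238 normalized counts after knockdown. The controls had 2637, 2565 and 2558, so the groups did not overlap, yet the difference was small (log2 fold change of -0.21, standard error 0.08, edgeR adjusted p of 0.11). *RAB14*, which acts between the Golgi and endosomes, was likewise lower without overlap, at 2079 ± 33.0 against 2431 ± 106 normalized counts (edgeR adjusted p of 0.10). *RAB11A*, the main Rab of recycling endosomes, had 3542 ± 57.9 and 3762 ± 114 normalized counts in the knockdown and control groups (edgeR adjusted p of 0.53), and its sign changed after the GC and length correction. *RAB17*, known from transcytosis in epithelia, had a log2 fold change of -0.74 at 10.6 to 41.1 normalized counts, with overlapping groups and an edgeR adjusted p of 0.27. *RAB3B*, an exocytic Rab named here after its values were seen, had an edgeR adjusted p of 0.065 in the reported fit and was called lower in 6 of the 15 alternatives, which include the DESeq2 Wald test and edgeR without a filter beside the 4 fits above. The summed counts of *RAB3A*, *RAB3B* and *RAB3D* were 950 ± 87.2 after knockdown and 1248 ± 145 in controls, without overlap.

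Summed over all 51 members, normalized counts were 47817, 48310 and 46867 in the knockdown cultures and 51753, 53645 and 51541 in the controls. Every knockdown sum was below every control sum. Rab genes made up 0.318% ± 0.0033 of all counts after knockdown and 0.346% ± 0.0093 in controls (SD, n = 3). The 11 Rab symbols left out for low counts had between 0 and 23 counts in any culture. *RAB4B*, the paralogue of *RAB4A*, was at 0 in 5 cultures and at 1 in the other.

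The study's libraries were stranded, but whether reads were counted by strand is not given in the sources used here. In GENCODE, 6 of the 8 called genes overlap a gene on the opposite strand, and the share among other genes is not given here. *RAB23* overlaps *BAG2* (log2 fold change of -0.19, edgeR adjusted p of 0.33), *RAB2B* overlaps *TOX4* (0.04, edgeR adjusted p of 0.85) and *RAB5A* overlaps *PP2D1*, which had a mean of 12.3 normalized counts. *RAB6A*, *RAB12* and *RAB21* overlap lncRNA genes with no entry in the table. If they were not counted by strand, reads of the overlapping parts cannot be told apart.

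Among listed genes that act on Rab proteins, more were called higher than lower. The lists were chosen with earlier results of these data known. From 5 lists of 144 genes (prenylation and membrane extraction, GEFs, TRAPP subunits, GAPs and effectors), 140 were tested, of which 17 rose (12.1%, against 5.40% of all genes tested) and 6 fell (4.29%, against 4.64%). By list, 6 GAPs rose and 2 fell of 37, 4 GEFs rose and 2 fell of 32, 5 effectors rose and 1 fell of 50, and 1 of 14 TRAPP subunits rose. Of the 7 genes of prenylation and extraction, 1 rose and 1 fell. Over the 140 genes tested the median log2 fold change was 0.04. A value below 0 was found for 47.1% of them, and for 52.7% of all genes tested. Without knockdown replicate 1 the number called was 12, without replicate 2 or 3 or without control replicate 1 it was 13, and without control replicate 2 it was 35, as after the GC and length correction.

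The clearest rise was in *BICD2*, the dynein adaptor that Rab6 recruits to vesicles, with 1806, 1747 and 1650 normalized counts after knockdown and 598, 619 and 726 in controls. The groups lay far apart, and the log2 fold change was 1.42 (standard error 0.10, edgeR adjusted p of 3.8e-05), while *RAB6A* itself was lower. *GOLGA2*, the Golgi matrix protein GM130 that binds Rab1, had a log2 fold change of 1.28 (standard error 0.12, edgeR adjusted p of 0.00016). It had 1778, 1641 and 1610 normalized counts after knockdown and 658, 593 and 817 in controls.

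Of the 4 GEFs that rose, *DENND5A* had the smallest edgeR p, and the 2 GEFs that fell were *DENND6A* and *RAB3IP*. *DENND5A*, which binds Rab6, had 1687 ± 121 normalized counts after knockdown and 843 ± 70.0 in controls (SD, n = 3), a rise of 100.2% with an edgeR adjusted p of 0.00021. *DENND6A*, a GEF of Rab14, had 552 ± 49.9 and 934 ± 134 normalized counts, a log2 fold change of -0.76 with an edgeR adjusted p of 0.0042. *RAB3IP*, the Rabin8 protein that activates Rab8, had 788 ± 55.6 and 1264 ± 203, a log2 fold change of -0.68 with an edgeR adjusted p of 0.0060. *RAB8A* and *RAB8B* were not called in the reported fit.

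The 6 GAPs that rose were 5 proteins with a TBC domain and *RAB3GAP1*. *TBC1D10B* had a log2 fold change of 1.26, *EVI5L* one of 1.10, *TBC1D9B* one of 0.88, *TBC1D16* one of 0.54 and *TBC1D9* one of 0.54, with edgeR adjusted p from 0.00015 to 0.0057. *RAB3GAP1*, the catalytic subunit of the Rab3 GAP, rose by 0.43 on the log2 scale (standard error 0.08, edgeR adjusted p of 0.0089), a call lost without knockdown replicate 2 or 3. *WDR44*, a Rab11 effector, was the called regulator with the most negative log2 fold change among those named, at -0.99 (standard error 0.12, edgeR adjusted p of 0.00060), with 654, 739 and 616 normalized counts after knockdown and 1402, 1140 and 1445 in controls. The 12 regulators named here were the called ones with the smallest p. Except for *RAB3GAP1*, they kept their call in each of the 15 alternative settings. None of the 8 called Rab genes did, but their edgeR adjusted p in the reported fit was already higher, at 0.012 to 0.044. Both sets therefore cannot be compared in this.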

How the data were processed

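RNA-seq counts of 3 knockdown and 3 control HEK293 cultures were used. Per the labels and the study's methods, the authors trimmed reads (Trim Galore), removed rRNA reads (SortMeRNA), mapped to hg38 (STAR), counted by gene (featureCounts) and deposited whole-number counts without normalization. The gene annotation, the strand setting and the handling of multi-mapping reads are not given in the sources used here.

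Counts were filtered with filterByExpr, which kept 14877 genes, TMM-scaled, and compared without a block by the robust quasi-likelihood test of edgeR 4.0.16 in R 4.3.3, and genes under a Benjamini-Hochberg adjusted p of 0.05 were called. Where the report says that groups did not overlap, normalized counts (counts over effective library size, times its mean) were compared. For 1 gene, an exact permutation test of 3 against 3 cannot go below a two-sided p of 0.10. CPM per kilobase uses the canonical transcript of GENCODE release 44, matched by symbol (23161) or synonym (1372). For 97.3% of tested genes GC content and length could be assigned, and their trend was removed by loess (span 0.3). 3′ UTRs of at least 50 bases were searched.

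Alternatives were DESeq2 size factors, library sizes alone, no filter, at least 10 counts in every library, the DESeq2 1.42.0 Wald test, limma-voom (limma 3.58.1), the replicate number as a block, the GC and length correction with and without the block, and each culture left out in turn. Named were all called members, their paralogues, the 5 uncalled members with the highest mean counts, the 5 with the largest change, and the 12 called regulators with the smallest p. *RAB3B*, *RAB9A*, *RAB14*, *RAB28* and genes named only for their calls under alternatives were chosen after their values were seen, and *RAB30* for its 7mer. Target sites were located with the study's silencer sequences and read from hg38. Members and lists were chosen with earlier results of these data known. 1 gene counted in the lists is not reported here. Fits were tested on simulated data.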

Additional observations from a re-analysis of the deposited data

How the results depend on the processing

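The sign of each of the 8 called Rab genes was the same under all 15 alternatives, and their log2 fold changes ran from -0.62 for *RAB40B* to 0.49 for *RAB5A*. With DESeq2 size factors, library sizes alone, no filter, at least 10 counts in every library, the DESeq2 Wald test or limma-voom, 7 or 8 members were called lower and 1 higher, among them the same 8 genes each time. After the GC and length correction, 13 members were called lower and 2 higher, 35 regulators were called, and 2836 genes in all. With the correction and the replicate block together, 10 members were called lower and 2 higher, 31 regulators were called, and 2409 genes in all. Between the groups, the correlations of same-numbered deviations were -0.20, -0.11 and -0.04, and those of differently numbered ones -0.07 to 0.16. These values gave no sign that the replicate numbers pair the cultures, but they cannot show whether cultures were run in parallel. With the replicate block alone 4 members were called lower. Leaving out 1 culture at a time gave 0 to 12 lower and 0 to 1 higher members, 12 to 35 regulators and 530 to 2512 genes in all. The fold change of *RAB11A* turned to 0.0162 under the correction and to 0.0192 with the block added. Without control replicate 2, that of *RAB40C* was 0.135 and that of *RAB7A* 0.0345, with ranges over single omissions of -0.25 to 0.14 and -0.11 to 0.03. The cause of these shifts was not tested. Standard errors of called members were 0.09 to 0.14 on the log2 scale, which limits the differences that 3 cultures a group could show.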

Other observations

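Among the genes that act on Rab proteins, *RIN2*, a Rab5 GEF, had the largest log2 fold change of those called, 1.47 (standard error 0.36, edgeR adjusted p of 0.024), at 26.5 ± 5.99 normalized counts after knockdown and 9.55 ± 2.14 in controls (SD, n = 3). *RABIF*, a chaperone of Rab proteins, fell from 470 ± 36.5 to 318 ± 34.6 normalized counts (edgeR adjusted p of 0.017). *TBC1D20*, a GAP of Rab1, fell from 1651 ± 41.3 to 1275 ± 5.80 normalized counts (edgeR adjusted p of 0.016). These 3 genes were chosen after their values were seen.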
